A study of Mus musculus with 6 samples.

Results

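The axonemal dyneins, radial spoke proteins, tektins and central apparatus proteins of the mouse testis were followed on 62 probes, out of 41174 probes other than controls. They were chosen by gene name alone: names beginning Dnah, Dnahc, Dnai, Dnaic, Dnal, Dnali or Dnalc and ending in a number, the numbered Rsph and Tekt names, and Spag6, Spag16 and Spag17. The 62 probes carried 31 gene names, of 27376 on the array. Of these, 33 probes stood for 12 dynein heavy chains, 6 for 5 intermediate or light chains, 10 for 6 radial spoke proteins, 6 for 5 tektins and 7 for 3 central apparatus proteins. The names are those of the array's design, so the heavy chains now called Dnah appear as Dnahc, Dnali1 keeps its name, and Dnalc1, Dnalc4, Dnaic1 and Dnaic2 are the present Dnal1, Dnal4, Dnai1 and Dnai2. The tissue was whole testis from 3 Prss37KO mice and 3 WT mice, all on the C57BL/6 background and 6 to 8 weeks old. Prss37 encodes a trypsin-family serine protease made in the testis. The description text of the mutant samples gives Prss55KO, whereas their titles and source names give Prss37KO, which was followed here. The construction of the Prss37 allele and whether any mice were littermates are not given in the sources used here.

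The axoneme is the ring of microtubule doublets around a central pair that bends the sperm tail. Outer and inner dynein arms are motors that slide neighbouring doublets, radial spokes carry signals from the central apparatus to the arms, and tektins are filaments inside the doublets that keep them together. In the testis most of their messages are made in late spermatocytes and spermatids, while the tail is being built, and loss of several of them is known to cause immotile sperm or primary ciliary dyskinesia.

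A level here is the log2 of the background-corrected spot signal minus the 75th percentile of that array on the log2 scale, so a level can only be compared between arrays for the same probe. A difference is the Prss37KO mean minus the WT mean of such levels. To enter the test, a probe had to exceed background clearly on all arrays of at least 1 genotype, and 28301 probes did. Differences were tested with limma over all of them, and a probe was called at a Benjamini-Hochberg adjusted p under 0.05. That fit called 293 probes, 132 higher and 161 lower in Prss37KO testes, with a median difference of -0.002 over all probes tested. The Prss37 probe had levels of 5.39, 5.51 and 5.47 in Prss37KO testes, against 6.17, 6.06 and 6.27 in WT testes, a difference of -0.71 (SE 0.07, limma adjusted p = 0.030). It was bright in both genotypes, and which part of the gene the allele removes is not given in the sources used here, so this probe may lie outside it. Its adjusted p was 0.053 in the fit blocked on slide, and ranged from 0.033 to 0.13 with an array left out, staying under 0.05 only without WT replicate 2 or 3. The design text gives n as mice, and their number limits the precision.

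The sequences below are shown because tektins were the class with the highest median difference, the light chain Dnalc1 had the member of smallest p, and 1 Dnahc2 probe lies on the opposite strand to the others. Each probe is named by its gene and by the base of its transcript record at which it begins, as the scanner files give it. The Dnalc1 probe at base 555 lies at chr12:85477542-85479317 (mm9, plus strand), the Tekt1 probe at base 927 at chr11:72159255-72165359 (minus strand), and the Dnahc2 probe at base 1346 at chr11:69358903-69358962 (plus strand). The Dnalc1 and Tekt1 probes are 60 bases long over a longer stretch of genome, so each is split between exons, as were 14 of the 62 probes. No base is capitalised in these 3 probes.
Dnalc1: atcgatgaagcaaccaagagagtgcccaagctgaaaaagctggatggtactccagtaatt
Tekt1: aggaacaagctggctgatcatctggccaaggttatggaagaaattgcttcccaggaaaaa
Dnahc2: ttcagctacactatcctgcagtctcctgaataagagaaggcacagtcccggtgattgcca
The promoters of the 5 tektin genes follow, from 250 bases before to 50 bases after the transcript start (RefSeq, GRCm38.p6), for the start listed first where a gene has several. Capitals mark the letters GTTGCC and GTTGCTANG on either strand, which are short forms of the X-box read by RFX transcription factors. The windows are chr11:72361833-72362132 (minus strand) for Tekt1, chr4:126325639-126325938 (minus strand) for Tekt2, chr17:25471340-25471639 (plus strand) for Tekt4, chr11:63061409-63061708 (plus strand) for Tekt3 and chr16:10395406-10395705 (minus strand) for Tekt5.
Tekt1: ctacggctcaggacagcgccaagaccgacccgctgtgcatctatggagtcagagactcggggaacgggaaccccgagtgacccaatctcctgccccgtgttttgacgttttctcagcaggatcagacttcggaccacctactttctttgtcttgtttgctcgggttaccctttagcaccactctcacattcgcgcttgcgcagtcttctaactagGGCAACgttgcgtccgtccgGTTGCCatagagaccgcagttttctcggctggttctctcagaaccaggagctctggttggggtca
Tekt2: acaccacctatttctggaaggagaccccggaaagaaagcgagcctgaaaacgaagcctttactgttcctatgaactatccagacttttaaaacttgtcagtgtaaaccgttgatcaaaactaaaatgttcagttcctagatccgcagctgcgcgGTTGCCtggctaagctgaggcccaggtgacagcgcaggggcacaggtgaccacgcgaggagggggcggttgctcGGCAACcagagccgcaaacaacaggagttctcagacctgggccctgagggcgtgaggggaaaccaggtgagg
Tekt4: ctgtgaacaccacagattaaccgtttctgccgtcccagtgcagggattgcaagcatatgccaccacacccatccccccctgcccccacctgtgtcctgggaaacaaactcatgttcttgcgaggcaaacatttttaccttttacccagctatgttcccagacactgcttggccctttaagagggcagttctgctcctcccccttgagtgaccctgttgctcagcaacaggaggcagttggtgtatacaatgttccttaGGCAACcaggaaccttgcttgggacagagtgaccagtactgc
Tekt3: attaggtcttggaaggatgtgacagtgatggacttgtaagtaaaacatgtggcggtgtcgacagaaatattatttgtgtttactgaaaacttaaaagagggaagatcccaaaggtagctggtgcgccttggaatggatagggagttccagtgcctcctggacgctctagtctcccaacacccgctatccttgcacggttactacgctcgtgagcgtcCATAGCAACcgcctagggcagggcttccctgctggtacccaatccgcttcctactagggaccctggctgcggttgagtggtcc
Tekt5: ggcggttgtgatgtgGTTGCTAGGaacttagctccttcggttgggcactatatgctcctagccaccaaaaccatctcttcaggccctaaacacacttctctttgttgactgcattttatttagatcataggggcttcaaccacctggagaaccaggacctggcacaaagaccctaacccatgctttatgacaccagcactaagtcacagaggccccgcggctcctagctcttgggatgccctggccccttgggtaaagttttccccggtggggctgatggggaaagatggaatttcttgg
The string GTTGCC stood in the Tekt1 window at bases 216 and 236, in the Tekt2 window at bases 155 and 229 and in the Tekt4 window at base 259, counted from the 5′ end. The Tekt3 and Tekt5 windows held no GTTGCC and held GTTGCTANG at bases 218 and 16. RefSeq promoters were matched for 27 of the member genes, with 30 windows between them. GTTGCC was in 8 of these 30 windows, those of Dnah10, Dnaic2, Spag16, Spag6l, Tekt1, Tekt2 and Tekt4, and in 12.5% of all 32851 promoters of the table. By gene this is 7 of 27, since 2 overlapping Tekt2 windows hold the same sites. The remaining Tekt1 and Tekt2 windows, at other starts, held 0. GTTGCTANG was in 8 of the 30, those of Dnah10, Dnah14, Dnah6, Dnaic2, Dnal1, Dnal4, Tekt3 and Tekt5, and in 1.91% of all promoters. Of the other 3 strings searched on both strands, GTTNCCATG was in 2 of the 30 windows and 1.93% of all, and TGACGTCA, the full cAMP response element, in 2 and 1.79%. The longer X-box string GTTGCCATG was in 0 of the 30 windows and in 0.773% of all promoters. GTTGCCATG contains GTTGCC and is a case of GTTNCCATG. These are matches of letters only, and the strings were chosen after the values of the tektins had been seen.

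Of the 62 probes, 56 for 29 of the gene names were tested, and 50 of the 56 were well above background on all 6 arrays. The other 6 were too dim: the only probes of Dnaic2 and Rsph4a, 2 of the 4 Dnahc9 probes, 1 of 3 for Dnahc5 and 1 of 2 for Spag6. By limma, 0 of the 56 were called at adjusted p under 0.05, where 1.04% of all tested probes were (0.466% higher, 0.569% lower in Prss37KO). At an unadjusted p under 0.05 there were 16 members, 28.6%, of which 10 were higher and 6 lower in Prss37KO, against 22.5% of all probes. Among the 50 detected on all 6 arrays, 13 had such a p, 26.0%, with 8 higher and 5 lower. Over the 56, differences ran from -0.51 to 0.71 with a median of -0.02, 24 above 0 and 32 below. Both ends were dim probes tested only through 1 genotype, Dnahc2 at base 2543 and Dnahc5 at base 15311, so neither is an estimate of size. The median size was 0.11, against 0.09 over all tested probes, and 47 of the 56 were under 0.25 in size. The levels of the 2 genotypes did not overlap for 21 members, 37.5%, against 30.4% of all probes, 13 of them higher and 8 lower in Prss37KO. Among the 50 detected on all 6 arrays, 11 were higher and 7 lower without overlap, 36.0%. The median SD within a genotype was 0.05 for Prss37KO and 0.07 for WT (n = 3 each).

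**Figure D1:**
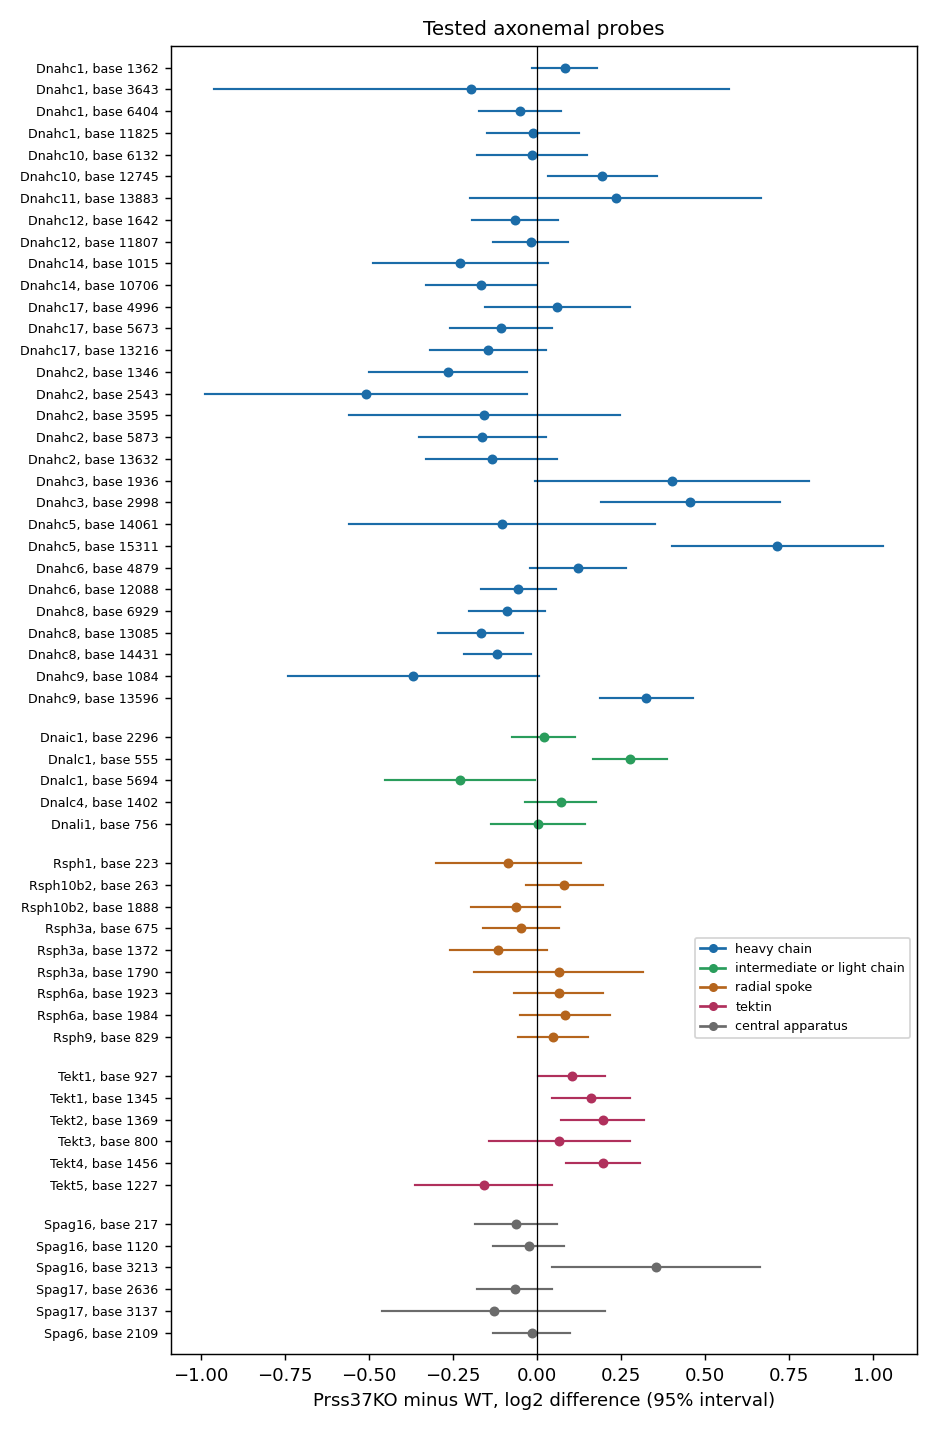
Difference between Prss37KO and WT testes for each of the 56 tested probes, on the log2 scale (horizontal axis), with its 95% interval from limma, named by gene and by the base of the transcript record at which the probe begins. Tektins other than Tekt5 lie to the right of 0, all 5 Dnahc2 and 3 Dnahc8 probes lie to the left, and the widest interval, that of the dim Dnahc1 probe at base 3643, spans 0.

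The calls depended on the unit of the test. With 1 probe per gene, the brightest, 18975 genes were tested and 2.46% were called. Dnahc9 (limma adjusted p = 0.048) and Dnalc1 (limma adjusted p = 0.045) were then called, both higher in Prss37KO, and 0 members were called lower. When the probes of each gene were averaged, 0 members were called, Dnalc1 stood at 0.024 (limma adjusted p = 0.83) and Dnahc9 at -0.022 (limma adjusted p = 0.88). Other settings of limma also called members. Those calls include the Dnahc5 probe at base 15311, which was well above background on 3 Prss37KO arrays and 1 WT array, could be tested only through the genotype where it is high, and so carries no direction. The other members called were higher in Prss37KO. Array weights called 5, Dnalc1, Dnahc9, Dnahc5, Dnahc3 and Tekt4, where 4.96% of all probes were called. A variance trend with robust fitting called 4, Dnalc1, Dnahc9, Tekt2 and Tekt4, where 5.40% were. Keeping only probes detected on all arrays gave Dnalc1 and Dnahc9 (2.06% of all probes), the deposited log2 table gave Dnalc1 and that Dnahc5 probe (1.71%), and quantile normalization gave the Dnahc5 probe alone (1.74%), which leaves 0 members detected on all 6 arrays. At an adjusted p under 0.1 over all probes, 5 members passed, where 8.00% of all probes passed. Of these, 4 were well above background on all 6 arrays and higher in Prss37KO. They were the Dnalc1 probe at base 555, the Dnahc9 probe at base 13596, Tekt4, and the Dnahc3 probe at base 2998. The other was the Dnahc5 probe at base 15311, which carries no direction.

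Tektins were the class with the highest median difference, 0.13, against -0.02 over all members and -0.002 over all probes. Of the 6 tektin probes 5 lay above 0 and 1 below, and for 4 of them the 3 Prss37KO arrays all lay above the 3 WT arrays, where 14.9% of all tested probes did and 15.5% lay the other way. None passed an adjusted p of 0.05 in the fit over all probes. The same 4, from Tekt1, Tekt2 and Tekt4, had an unadjusted p under 0.05, against 11.1% of all probes in that direction. Taking each array's median deviation from the probe means over the 6 tektin probes, the Prss37KO arrays stood at 0.07, 0.08 and 0.05, against -0.09, -0.08 and -0.04 for the WT arrays. The class median stayed between 0.12 and 0.15 with any 1 array left out, and was 0.17 on slide 1 and 0.11 on slide 2. It moved with the scaling and the unit: 0.10 after quantile normalization and in the deposited table, and 0.16 with 1 probe per gene. After quantile normalization Tekt4 gave 0.15, Tekt2 0.14 and the Tekt1 probes 0.12 and 0.07, with limma adjusted p from 0.12 to 0.46.

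Tekt4, a tektin of the sperm tail, had levels of 5.73, 5.77 and 5.74 in Prss37KO testes, against 5.49, 5.54 and 5.61 in WT testes. The genotypes did not overlap and the difference was 0.20 (SE 0.05, 95% interval 0.09 to 0.31, limma adjusted p = 0.083), a fold of 1.15. Tekt2, whose loss in mice disturbs sperm movement, had levels of 5.89, 5.92 and 5.82 in Prss37KO testes, against 5.70, 5.72 and 5.62 in WT testes. Here too every Prss37KO array lay above every WT array, and the difference was 0.19 (SE 0.05, limma adjusted p = 0.10). Slide 1 alone gave 0.19 and slide 2 alone 0.20.

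Tekt1, a core filament protein of the doublet, was read by 2 probes that gave the same sign. At base 1345 its levels were 6.25, 6.30 and 6.27 in Prss37KO testes, against 6.14, 6.04 and 6.16 in WT testes (difference 0.16, limma adjusted p = 0.13). At base 927, the printed probe, they were 4.71, 4.74 and 4.74 in Prss37KO testes, against 4.59, 4.67 and 4.63 in WT testes (difference 0.10, limma adjusted p = 0.21). The genotypes were apart on both probes, by a gap smaller than the spread of the WT arrays.

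Tekt3, a further tektin of the sperm tail, did not separate the genotypes. Its levels were -0.02, -0.07 and -0.08 in Prss37KO testes, against -0.30, -0.09 and 0.02 in WT testes, and the difference of 0.07 was -0.02 without WT replicate 1. Tekt5 was the exception in sign, with levels of 2.56, 2.60 and 2.55 in Prss37KO testes, against 2.78, 2.55 and 2.86 in WT testes. The difference was -0.16 (95% interval -0.36 to 0.04, limma adjusted p = 0.32) and WT replicate 2 fell among the Prss37KO arrays. In whole testis, fewer cells of a type and less RNA per cell cannot be told apart, and this holds for every value given here.

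**Figure D2:**
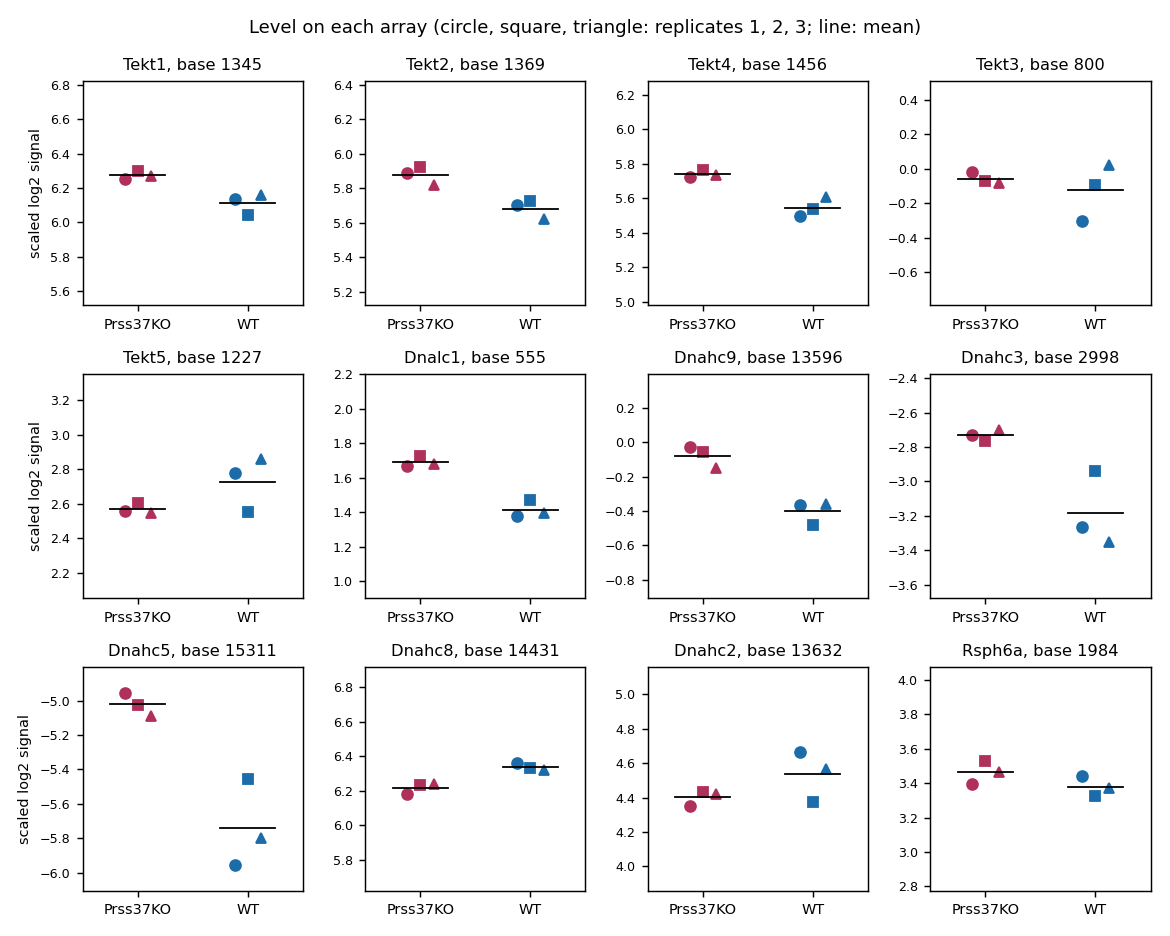
Level of 12 probes on each array (vertical axis, scaled log2 signal, each panel spanning the same number of log2 units), with Prss37KO left of WT and the mean as a line. Tekt1, Tekt2, Tekt4, Dnalc1, Dnahc9, Dnahc3 and Dnahc5 show 3 Prss37KO arrays above 3 WT arrays, Dnahc8 shows the opposite, and Tekt3, Tekt5, Dnahc2 and Rsph6a overlap.

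The dynein heavy chains, the motor subunits themselves, had a median below 0. Of 30 tested heavy-chain probes 21 lay below 0 and 9 above, with a median of -0.08, 4 higher and 5 lower in Prss37KO at an unadjusted p under 0.05, and 0 called. Those 9 are 30.0% of the class, against 22.5% of all probes. The genotypes did not overlap for 5 higher and 6 lower, 36.7% of the class, against 30.4% of all probes. Both higher counts include the Dnahc5 probe at base 15311, and both lower counts the Dnahc2 probe at base 2543. Each of these entered the test only through the genotype where it is higher. Replicate 1 of each genotype stood farthest from the rest: over the heavy chains the arrays' median deviations were -0.10, -0.001 and 0.0006 in Prss37KO testes, against 0.08, 0.005 and 0.004 in WT testes. Without Prss37KO replicate 1 the class median was -0.03, and without WT replicate 1 it was -0.06. On slide 2, which holds neither of those arrays, it was 0.003. The 30 probes read 12 genes, and of the 21 below 0, 5 came from Dnahc2 and 3 from Dnahc8. Taking only the brightest probe of each gene moved the class median to -0.04, and averaging probes within genes moved it to -0.03.

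Among the outer-arm heavy chains, Dnahc8 and Dnahc17 are the pair used in sperm tails, and Dnahc5, Dnahc9 and Dnahc11 their counterparts in motile cilia. All 3 Dnahc8 probes lay below 0 with no overlap between genotypes. The brightest, at base 14431, had levels of 6.18, 6.23 and 6.24 in Prss37KO testes, against 6.36, 6.33 and 6.32 in WT testes. Its difference was -0.12 (SE 0.04, 95% interval -0.22 to -0.02, limma adjusted p = 0.17), and the others gave -0.17 at base 13085 and -0.09 at base 6929. The 3 probes read 1 gene in the same RNA and are not replicates. Dnahc17 gave -0.15 at base 13216, -0.11 at base 5673 and 0.06 at base 4996. Its brightest probe, at base 13216, had levels of 3.82, 3.90 and 3.88 in Prss37KO testes, against 4.13, 4.03 and 3.88 in WT testes, so WT replicate 3 stood with the mutants.

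Dnahc9 gave opposite signs on its 2 tested probes. At base 13596 (mm9 chr11:65644944-65645003, minus strand) the levels were -0.03, -0.06 and -0.15 in Prss37KO testes, against -0.37, -0.48 and -0.36 in WT testes. The genotypes were well apart, with a difference of 0.32 (SE 0.06, 95% interval 0.19 to 0.46, limma adjusted p = 0.056), a fold of 1.25. At base 1084 they were -4.58, -4.85 and -4.51 in Prss37KO testes, against -4.28, -4.02 and -4.54 in WT testes (difference -0.37, limma adjusted p = 0.23), and 0.03 on slide 2. The mean of both probes gave -0.02, so the direction for Dnahc9 depends on the probe. Its remaining 2 probes, at bases 2608 and 7283, were not well above background on any array.

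Dnahc5 also had probes of both signs, and all of them were dim. At base 15311 the levels were -4.95, -5.02 and -5.09 in Prss37KO testes, against -5.95, -5.46 and -5.80 in WT testes, with 3 Prss37KO arrays and 1 WT array well above background. The probe entered the test only through the mutant arrays and the WT level is mostly not measured. Its fitted difference of 0.71 (0.27 after normexp background correction) is therefore no estimate of size, though the ranges and counts over all members include it. At base 14061, the levels were -4.65, -4.53 and -4.69 in Prss37KO testes, against -4.41, -4.95 and -4.21 in WT testes, a difference of -0.10 with overlapping genotypes that was 0.052 without WT replicate 3. The only Dnahc11 probe, also dim, gave 0.23 (95% interval -0.20 to 0.67), and 0.08 after normexp. It was well above background on 3 Prss37KO and 2 WT arrays, so it too entered the test only through the mutant arrays.

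The inner-arm heavy chains were Dnahc1, Dnahc2, Dnahc3, Dnahc6, Dnahc10, Dnahc12 and, by sequence family, Dnahc14. Dnahc2, whose human counterpart is mutated in men with malformed sperm tails, gave 5 differences below 0. Its bright probe, at base 13632, had levels of 4.35, 4.43 and 4.42 in Prss37KO testes, against 4.66, 4.38 and 4.57 in WT testes (difference -0.13, 95% interval -0.33 to 0.06). WT replicate 2 lay among the mutants there. The probes at bases 5873 and 3595 each gave -0.16, the one at base 3595 turning to 0.011 without Prss37KO replicate 1.

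The remaining 2 Dnahc2 probes had the largest differences of the gene and were near the limit of detection. At base 2543 the levels were -5.73, -5.29 and -5.22 in Prss37KO testes, against -5.01, -5.14 and -4.56 in WT testes. It was well above background on 0 of 3 Prss37KO arrays and 3 of 3 WT arrays, so the mutant level is not measured and the size of the difference is uncertain. The means were -5.41 in Prss37KO and -4.90 in WT, and the fitted difference of -0.51 (95% interval -0.99 to -0.03, limma adjusted p = 0.20) was -0.15 after normexp background correction and -0.33 without WT replicate 3. At base 1346, the printed probe on the opposite strand, the levels were -5.48, -5.37 and -5.12 in Prss37KO testes, against -5.10, -5.08 and -4.99 in WT testes (difference -0.26, limma adjusted p = 0.18). In the file's coordinates this probe runs against the direction of the other Dnahc2 probes, so which transcript it reads was not settled here.

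Dnahc3 gave 2 differences above 0. At base 2998 (mm9 chr7:127069682-127069741, minus strand) the levels were -2.73, -2.76 and -2.70 in Prss37KO testes, against -3.26, -2.94 and -3.35 in WT testes. The Prss37KO arrays lay within a narrow band above all WT arrays, and the difference was 0.46 (SE 0.11, limma adjusted p = 0.088). Without WT replicate 2, the nearest WT array, it was 0.58 with an adjusted p of 0.034, in a fit that called 2.79% of all probes. Without any other array the adjusted p lay between 0.12 and 0.24, with differences down to 0.37, and it was 0.11 blocked on slide and 0.13 after normexp, where the difference was 0.33. The dimmer probe at base 1936 had levels of -4.88, -5.32 and -5.02 in Prss37KO testes, against -5.78, -5.32 and -5.32 in WT testes (difference 0.40, overlapping). It was well above background on 3 Prss37KO and 2 WT arrays, so it entered the test only through the mutant arrays. After normexp its difference was 0.16.

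Dnahc14 gave -0.23 and -0.17. Its probe at base 1015 had levels of 0.13, 0.21 and 0.18 in Prss37KO testes, against 0.58, 0.46 and 0.17 in WT testes, and the difference of -0.35 on slide 1 was 0.01 on slide 2. Dnahc12, a short heavy chain, gave -0.07 at base 1642 and -0.02 at base 11807, where the interval was -0.13 to 0.09. Dnahc1, an inner-arm chain whose loss in men gives sperm with malformed tails, gave 0.08, -0.01 and -0.05 on 3 of its probes. The remaining probe, at base 3643, had levels of -5.78, -4.76 and -4.55 in Prss37KO testes, against -4.96, -4.76 and -4.79 in WT testes, and its difference of -0.20 was 0.18 without Prss37KO replicate 1. That probe was well above background on 2 Prss37KO and 3 WT arrays. Dnahc6 gave 0.12 and -0.06. Dnahc10 gave 0.19 at base 12745, where the genotypes did not overlap (limma adjusted p = 0.16), and -0.02 at base 6132.

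The intermediate and light chains hold the heavy chains together and to the doublet. Of 5 tested probes 4 lay above 0 and 1 below, with a median of 0.02 that was -0.003 after quantile normalization, -0.002 in the deposited table and 0.05 without WT replicate 3. Dnalc1 encodes the leucine-rich light chain that binds an outer-arm heavy chain. On the printed probe at base 555 its levels were 1.67, 1.73 and 1.68 in Prss37KO testes, against 1.38, 1.47 and 1.40 in WT testes. The gap between the genotypes was larger than the spread within either, and the difference was 0.28 (SE 0.05, 95% interval 0.17 to 0.39, fold 1.21), with the smallest p of any member and a limma adjusted p of 0.053. Within slides it was 0.27 (slide 1) and 0.28 (slide 2), and it lay between 0.26 and 0.30 with any 1 array left out, while its adjusted p then ranged from 0.047 to 0.18. Averaged with the gene's other probe, the difference was 0.024.

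A second Dnalc1 probe, at base 5694, pointed the other way. Its levels were -5.16, -5.07 and -4.94 in Prss37KO testes, against -4.69, -4.82 and -4.97 in WT testes (difference -0.23, limma adjusted p = 0.21), and 0.04 on slide 2. It holds a stop codon in each forward frame, so it is not wholly coding sequence, and it was dim. Of the single-probe genes of the class, Dnaic1, an outer-arm intermediate chain, differed by 0.02 (95% interval -0.07 to 0.11). Dnali1, an inner-arm light intermediate chain, differed by 0.003 (-0.14 to 0.14) and Dnalc4, a light chain, by 0.07 (-0.03 to 0.18).

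The radial spoke proteins had the narrowest range of differences of the 5 classes. All 9 tested probes had differences between -0.12 and 0.08, with a median of 0.05, and 0 of them had an unadjusted p under 0.05, against 22.5% of all probes. The spoke-head proteins Rsph1 and Rsph9 gave -0.08 and 0.05. Rsph9 had the narrower interval, -0.06 to 0.15. Rsph6a, a testis paralogue of the spoke-head protein Rsph4a, gave 0.06 and 0.08, with levels of 3.40, 3.53 and 3.47 in Prss37KO testes and 3.44, 3.32 and 3.37 in WT testes on its brighter probe.

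Rsph3a, a stalk protein that anchors protein kinase A, was read by 3 probes with differences of -0.05, -0.12 and 0.06. On the brightest, at base 1790, the levels were 6.90, 7.05 and 6.95 in Prss37KO testes, against 7.01, 6.68 and 7.01 in WT testes. Its near-identical copy Rsph3b may share these signals, and the same caution holds for Rsph10b2, which gave 0.08 and -0.06. The class median was -0.03 without WT replicate 2.

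In the central apparatus, 6 probes were tested, 5 of them below 0, with a median of -0.04. Spag6 gave -0.02 and is read with caution, since the accession of its probe now belongs to the close copy Spag6l. Spag17, a scaffold of the central-pair projections, gave -0.07 and -0.13, and the -0.13 of base 3137 turned to 0.017 without WT replicate 2. Spag16, its partner, gave -0.06 and -0.03 on its brighter probes. The dim Spag16 probe, at base 3213, had levels of -4.85, -5.28 and -5.13 in Prss37KO testes, against -5.44, -5.58 and -5.31 in WT testes (difference 0.35, SE 0.13, limma adjusted p = 0.18), near the limit of detection and with 3 Prss37KO and 2 WT arrays well above background.

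Many of the larger differences were on dim probes, as the plot of difference against level shows. The 13 tested members with a mean level under -4 had a median difference in size of 0.23 and a median SE of 0.15. The other 43 had 0.08 and 0.05. Among the 18 genes with 2 or more tested probes, 8 had probes of 1 sign: Dnahc3, Rsph6a and Tekt1 above 0, and Dnahc2, Dnahc8, Dnahc12, Dnahc14 and Spag17 below. Of these, Dnahc2, Dnahc12 and Spag17 each have a probe that turned above 0 with 1 array left out, and 12 of the 56 members turned sign in that way. The Dnahc3 probe at base 1936 and the Dnahc2 probe at base 2543 were tested only through the genotype where each is higher. The other 10 genes had probes of both signs: Dnahc1, Dnahc5, Dnahc6, Dnahc9, Dnahc10, Dnahc17, Dnalc1, Rsph10b2, Rsph3a and Spag16. Of the tested members, 8 hold a stop codon in each forward frame and so cannot be wholly coding, among them Tekt2, the Dnahc9 probe at base 13596, both tested Dnahc5 probes and the Dnahc3 probe at base 2998.

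**Figure D3:**
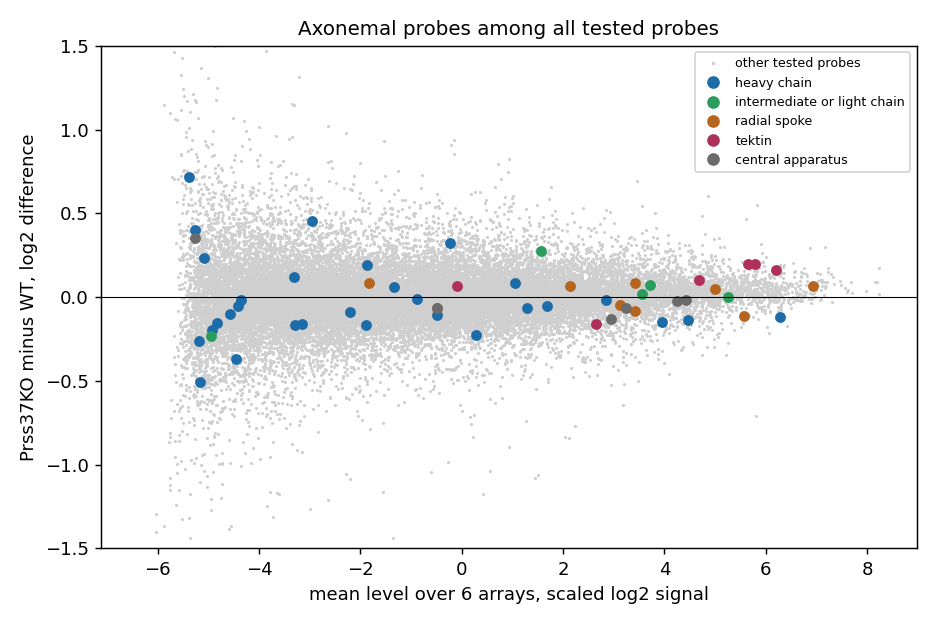
Difference between Prss37KO and WT (vertical axis, log2) against mean level over 6 arrays (horizontal axis, scaled log2 signal), for the 56 members in colour and other tested probes in grey. Members above a level of -4 lie within 0.46 of 0, and the members beyond 0.5 are at the dim end. At any level, grey probes beyond 1.5 on either side, 44 in all, are not drawn.

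The arrays came from 2 slides, with replicate 3 of both genotypes on slide 2 and the rest on slide 1. Within slide 1 the median over the 56 members was -0.03, within slide 2 it was 0.008, and 37 had the same sign on both. Over all 28301 tested probes, 18846 had the same sign on both slides, a like share. With the slide as a block in limma, 31 probes were called in all and 0 members.

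**Figure D4:**
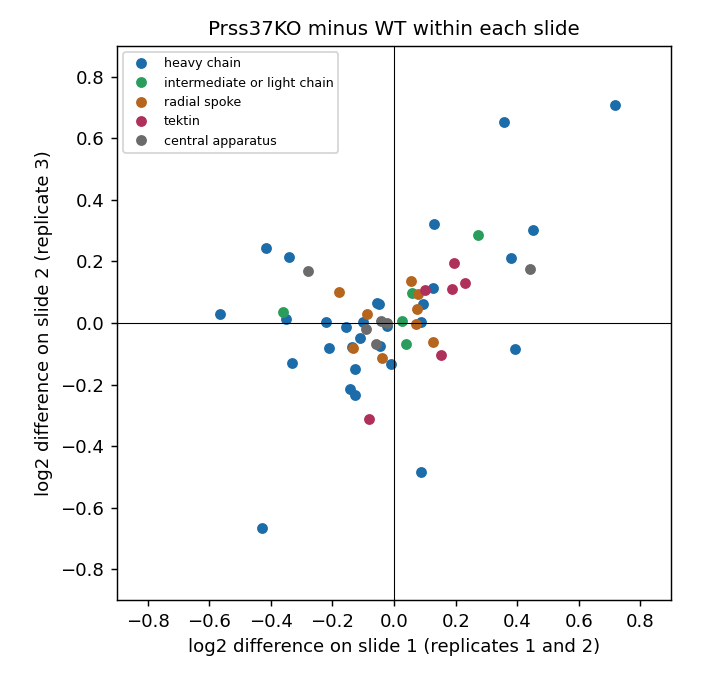
Difference between Prss37KO and WT within slide 1 (horizontal axis, replicates 1 and 2) and within slide 2 (vertical axis, replicate 3), in log2 units, for the 56 tested members. Points in the upper right and lower left, 37 of 56, had the same sign on both slides, against 18846 of all 28301 tested probes. Among these 37 were Tekt1, Tekt2, Tekt4 and the brighter Dnalc1 and Dnahc9 probes.

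The proteins that build, dock and surround these parts were read from lists of named genes. In dynein arm assembly, 27 probes had a median of -0.01 and 0 calls. The members of smallest p were Lrrc6 at 0.23 (limma adjusted p = 0.071) and Dnaaf4 at -0.20 (0.095), which are cytoplasmic factors for preassembly of the arms. The 12 docking probes had a median of 0.02, with Efcab1 at -0.61 on a dim probe and Armc4 at 0.23. The 19 probes of the nexin-dynein regulatory complex and the axonemal ruler had a median of 0.07, with 2 Iqca probes at 0.47 and 0.41.

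The 19 probes of other radial spoke proteins had a median of 0.04, with Iqub at 0.21 and Maats1 at 0.12. The 28 probes of other central apparatus proteins had a median of 0.03 and the 18 of proteins inside the doublet microtubules 0.05. Spef2, a central apparatus protein needed for tail formation, gave 0.23 with levels of 0.07, 0.06 and 0.05 in Prss37KO testes, against -0.19, -0.16 and -0.17 in WT testes (limma adjusted p = 0.052). Spef1, a microtubule-bundling protein of the same list, gave -0.19. Cfap45 and Enkur, both of the doublet interior as the tektins are, gave 0.20 and 0.16. None of these lists held a call, and none did among 38 probes of cytoplasmic dynein and other dynein light chains (median 0.003), where Dynlrb2 gave 0.14 and Dynlt1f -0.15.

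Intraflagellar transport, which carries axonemal parts into the growing tail, had 45 probes with a median of 0.04 and 0 calls. At an unadjusted p under 0.05, 10 were higher and 3 lower in Prss37KO, against 11.1% higher and 11.4% lower of all probes, and both Ift57 probes, at 0.26 and 0.24, were of smallest p. The 30 probes of ciliary transcription factors had a median of 0.04 and 0 calls. Foxj1, a master regulator of motile cilia, had levels of 2.11, 2.11 and 2.06 in Prss37KO testes, against 1.59, 1.85 and 1.62 in WT testes (difference 0.41, limma adjusted p = 0.060). Sox5 gave 0.47 on a dim probe. Among 40 probes of tubulins and their modifying enzymes the median was 0.06 and 1 was called: Tubb3, a beta tubulin, fell by 0.31 (limma adjusted p = 0.047), and its adjusted p was 0.073 blocked on slide. With an array left out it ran from 0.049 to 0.18 and was under 0.05 only without WT replicate 2.

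Spermatid markers lay mostly above 0. Of 13 round spermatid marker probes 10 lay above 0 with a median of 0.11, and their levels summed on the linear scale were 204 to 207 in Prss37KO testes and 189 to 205 in WT testes. For 15 elongating spermatid probes 14 lay above 0, with a median of 0.09 and sums of 1783 to 1979 in Prss37KO and 1773 to 1844 in WT testes. For 16 spermatocyte probes the median was 0.04 and the sums were 77.7 to 79.3 in Prss37KO and 71.5 to 75.5 in WT testes. For 11 spermatogonial probes the median was -0.02, with sums of 20.0 to 20.4 in Prss37KO and 21.9 to 24.2 in WT testes. Of those 11, 5 lay above 0 and 6 below. At an unadjusted p under 0.05, 0 were higher and 4 lower in Prss37KO, against 11.1% higher and 11.4% lower of all probes. The list of multiciliated cell markers, a type found in efferent ducts, had 6 of 7 probes above 0, a median of 0.11 and sums of 107.1 to 109.2 in Prss37KO and 97.6 to 103.3 in WT testes. That list holds Foxj1 and Dynlrb2, which the testis also expresses, while its markers Cdhr3 and Sntn were too dim to be tested. The epididymal markers Crisp1, Defb12, Lcn5, Lcn8, Rnase9 and Spint4 were too dim to be tested on these arrays, and the 7 tested probes of that list had a median of -0.13.

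Of the somatic lists, macrophage markers had 10 of 10 probes above 0, a median of 0.20 and sums of 5.97 to 6.36 in Prss37KO and 5.13 to 5.33 in WT testes. Sertoli markers had a median of 0.02, Leydig markers -0.10, peritubular markers -0.04, endothelial markers -0.01 and adipocyte markers -0.11. The Leydig median was 0.03 on slide 1 and -0.16 on slide 2, and the adipocyte median 0.04 on slide 1 and -0.52 on slide 2. The erythroid list had a median of -0.11 and the only call among these lists, Alas2, which rose by 0.53 in Prss37KO testes (limma adjusted p = 0.043, and 0.073 blocked on slide). With an array left out its adjusted p ran from 0.035 to 0.17, under 0.05 only without WT replicate 2. All 11 round spermatid and all 10 elongating spermatid marker genes had a tested probe in these testis samples. The part of these cell types in the differences of the axonemal members was not tested.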

How the data were processed

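Labelled RNA from each mouse had been hybridised to a 1-colour Agilent-014868 mouse array. The authors deposited the spot intensity of each array with background already subtracted. The software was Feature Extraction by Agilent, whose version is 10.7.3.1 in the headers and 10.7 in the submitters' processing notes. A deposited table of log2 values, whose normalization is not given in the sources used here, was used as an alternative. It had a median of 7.72 on each array, and the sorted values of the arrays matched those of the first within 0.0013. Quantile normalization leaves arrays in that state, so this alternative and the quantile setting are not separate checks.

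Arrays held 43379 spots other than controls, of which 69.2% to 71.4% were well above background and 0 saturated. Control spots and flagged outliers (86 to 159 per array) were left out, log2 signals were scaled to each array's 75th percentile (signals of 1550 to 1707), and spots of a probe were averaged, with at least 2 values per genotype. The genotypes were set against each other with lmFit and eBayes of limma 3.58.1 under R 4.3.3, two-sided, without a block, with adjusted p over 28301 probes. Coordinates are those of the scanner files (mm9). Whether a probe lies in an untranslated region was not analysed here.

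Named in full were the 6 highest and 6 lowest members, the tektins and the spoke differences. So were genes with probes of both signs and probes below background in 1 genotype. For each list of axonemal and related genes, its called genes or the 2 of smallest p were named. For the cell type lists this was done for called genes only. The members, lists and tests were chosen with earlier results of these data known. On simulated arrays true log2 differences of 0.3 were called for 18% of probes and of 0.5 for 56%. Differences of 0.7 were called for 68% and of 1 for 78%, with 6 false calls over 28301 probes. Only 50 probes of each size were changed, drawn at random from all tested probes, with normal noise. In the data 22.5% of probes had an unadjusted p under 0.05, so these rates do not give the power for the members. Alternatives were other scalings, background corrections, filters, units, variance models, blocks, thresholds and each array left out.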

Additional observations from a re-analysis of the deposited data

How the results depend on the processing

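The count of calls moved strongly with the processing. Against 293 called probes (132 higher, 161 lower in Prss37KO), limma called 493 after quantile normalization (250 higher, 243 lower), 485 from the deposited log2 table (248 higher, 237 lower), 566 among probes detected on all arrays, 467 with 1 probe per gene, 1527 with a variance trend and robust fit (843 higher, 684 lower), 1404 with array weights (763 higher, 641 lower), 2265 at adjusted p under 0.1, 31 with the slide as a block (11 higher, 20 lower) and 5 with no filter (0 higher, 5 lower). With an array left out the count ran from 2 to 789: 34 without Prss37KO replicate 1, 2 without replicate 2, 5 without replicate 3, 8 without WT replicate 1 and 789 without WT replicate 2. Against 0 called members there were 1 after quantile normalization, 2 each from the deposited table, with probes detected on all arrays and with 1 probe per gene, 4 with the variance trend, 5 with array weights, 5 at adjusted p under 0.1, and 0 to 3 with an array left out. Apart from the Dnahc5 probe at base 15311, testable only through the mutant arrays, they were higher in Prss37KO and came from Dnalc1, Dnahc9, Dnahc3, Tekt2 and Tekt4. Without that probe the counts were 0 after quantile normalization, 1 from the deposited table, 4 with array weights and 2 without WT replicate 2. The median over members, -0.022, was 0.019 with 1 probe per gene or the mean of a gene's probes, where fewer units were taken, and ran from -0.041 to 0.0045 with an array left out. Of the 56 members, 12 turned sign with an array left out, most of them close to 0. When a gene's probes were averaged, Dnalc1 stood at 0.024 and Dnahc9 at -0.022. Those signs are opposite to the Dnalc1 probe at base 5694 and the Dnahc9 probe at base 13596, which kept their own sign with any 1 array left out. Among the 12, the Dnahc1 probe at base 3643 turned without Prss37KO replicate 1 (0.18, in a range of -0.44 to 0.18). Tekt3 turned without WT replicate 1 (-0.023, in a range of -0.023 to 0.14). The Dnahc5 probe at base 14061 (0.052 without WT replicate 3) and the Rsph3a probe at base 1790 (-0.046 without WT replicate 2) turned too. Apart from the averaging of probes, the causes were not tested.

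Whether replicate numbers pair the animals was not settled. Deviations of same-numbered arrays correlated at -0.05, -0.03 and 0.14, and not every array correlated best with its own number. With 3 arrays per genotype such a check cannot exclude pairing. With the replicate block limma called 3 probes (0 higher, 3 lower) and 0 members. Signal over background limits the 13 members under a level of -4.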

Other observations

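Some axonemal genes carry names in the array's design that the name rule does not reach. The probe listed as BC061194, whose accession is now that of Spag6, had levels of 4.28, 4.24 and 4.24 in Prss37KO testes, against 3.86, 4.06 and 3.98 in WT testes. The genotypes did not overlap and the difference was 0.29 (SE 0.06, limma adjusted p = 0.072), whereas the tested probe named Spag6, now Spag6l, gave -0.02. The inner-arm heavy chain Dnah7a gave -0.09, -0.003 and 0.0006 on its 3 probes and its close copy Dnah7b gave -0.07. Rsph14, listed as Rtdr1, gave 0.04.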
